A study of Homo sapiens with 8 samples.

Results

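The heat shock chaperone genes described here are HSPA1A, HSPA1B, HSPA8, HSPH1, HSP90AA1, DNAJB1, BAG3, HSPB1, HSPA5 and HSPD1. They are 10 genes taken by name from a matrix of 60286 genes, and all 10 passed the filter on low counts in every comparison of whole cultures. The study grew neural cultures from H1, a human embryonic stem cell line, in 2-D or as 3-D organoids, to describe their composition and their responses to dopamine, cocaine and morphine. Single-cell RNA was barcoded by split-pool rounds, in which fixed cells are mixed and split repeatedly so that each collects its own barcode, and 43693 cells were recovered in 8 sublibraries of the same pool. The cell names carry 46 culture tags in 9 arrangements, which are the units compared here. The arrangement 2DCocu has 12 tags, 4 each of AcCoc, AcMor and Vehic, and 3DFusi has 10 tags, 4 of AcCoc and 3 each of AcMor and Vehic. The arrangements 2DMono and 3DMono have 6 tags each, 2 of AcDop, 2 of AcMor and 2 of Vehic. The arrangements 2DProto2Fjo, 2DProto3Wu and 2DProto4Nic have 2 tags each, 3DProto1For and 3DProto2Xia have 3 each, and these carry no treatment in their names. The names are read here as 2-D co-culture, fused 3-D organoids and 2-D or 3-D monoculture, but the labels do not spell out the tags, give no dose or exposure time, and do not say whether numbered tags are separate cultures. The p-values therefore measure the spread between tags, which may be technical. All cells share the H1 background, and the labels state that each dissociation took 2 to 3 organoids.

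Molecular chaperones hold or refold proteins that have lost their shape. HSPA1A and HSPA1B encode the stress-inducible cytosolic HSP70 and HSPA8 its constitutive counterpart. HSP90AA1 encodes the inducible HSP90, HSPH1 the HSP110 that exchanges the nucleotide of HSP70, DNAJB1 a J-domain protein that delivers clients to HSP70, BAG3 a co-chaperone that links HSP70 to autophagy, and HSPB1 a small heat shock protein. These cytosolic genes are classical targets of the transcription factor HSF1, which binds inverted repeats of a short unit, GAA or TTC, in promoters. HSPD1 encodes the mitochondrial chaperonin HSP60. HSPA5 encodes BiP, the HSP70 of the endoplasmic reticulum, and is induced by the unfolded protein response through a different promoter element.

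The 6 promoter sequences printed here show inverted heat shock units in 5 of the 7 members that carried them, and the endoplasmic reticulum stress element in HSPA5. Each is the 250 bases before a RefSeq start site, 5′ to 3′ on the gene's strand in GRCh38.p14, with the matched stretches in capitals, and several RefSeq starts lie inside the longer gene models of GENCODE. The searched heat shock motif was GAANNTTC or TTCNNGAA, each of which is its own reverse complement, and 3 units in overlapping pairs were counted as a triple. The endoplasmic reticulum element was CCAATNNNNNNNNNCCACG on either strand.
HSPA1A chr6:31815293-31815542, plus strand: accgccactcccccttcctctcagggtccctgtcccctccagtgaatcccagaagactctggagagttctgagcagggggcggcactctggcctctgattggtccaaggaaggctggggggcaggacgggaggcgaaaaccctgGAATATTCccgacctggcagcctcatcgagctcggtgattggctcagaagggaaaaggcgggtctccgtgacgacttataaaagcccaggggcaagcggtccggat
HSPA1B chr6:31827488-31827737, plus strand: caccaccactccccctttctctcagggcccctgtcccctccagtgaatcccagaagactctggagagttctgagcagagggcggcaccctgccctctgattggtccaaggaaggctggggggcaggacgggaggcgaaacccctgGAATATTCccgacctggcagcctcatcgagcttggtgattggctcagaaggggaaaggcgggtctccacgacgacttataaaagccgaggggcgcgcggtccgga
HSPA8 chr11:123062137-123062386, minus strand: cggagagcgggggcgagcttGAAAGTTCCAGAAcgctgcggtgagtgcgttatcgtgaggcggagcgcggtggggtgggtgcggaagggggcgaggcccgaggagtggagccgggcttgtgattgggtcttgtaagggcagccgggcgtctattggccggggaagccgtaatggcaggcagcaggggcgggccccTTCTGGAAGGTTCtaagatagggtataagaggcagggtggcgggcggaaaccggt
HSP90AA1 chr14:102087045-102087294, minus strand: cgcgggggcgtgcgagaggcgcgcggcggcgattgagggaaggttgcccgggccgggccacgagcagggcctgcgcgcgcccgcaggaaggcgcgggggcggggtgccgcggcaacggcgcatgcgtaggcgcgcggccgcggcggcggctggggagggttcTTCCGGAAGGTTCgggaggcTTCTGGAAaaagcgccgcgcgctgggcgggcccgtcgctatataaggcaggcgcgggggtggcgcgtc
HSPD1 chr2:197499841-197500090, minus strand: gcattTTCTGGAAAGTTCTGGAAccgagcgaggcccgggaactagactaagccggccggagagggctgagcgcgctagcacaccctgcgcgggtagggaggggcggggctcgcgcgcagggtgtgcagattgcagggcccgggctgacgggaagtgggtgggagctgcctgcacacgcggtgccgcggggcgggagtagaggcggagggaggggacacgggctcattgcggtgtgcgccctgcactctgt
HSPA5 chr9:125241344-125241593, minus strand: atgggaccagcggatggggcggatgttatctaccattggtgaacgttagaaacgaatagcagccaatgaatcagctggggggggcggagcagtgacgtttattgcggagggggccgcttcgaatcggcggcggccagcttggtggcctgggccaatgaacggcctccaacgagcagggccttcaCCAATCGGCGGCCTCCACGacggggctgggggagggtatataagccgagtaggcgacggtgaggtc
A pair of inverted units stood in at least 1 promoter of 7 of the 10 members and a triple in 3 of them, HSPA8, HSP90AA1 and HSPD1. Per promoter, 8 of the 14 RefSeq promoters of the members held a pair and 3 a triple. Over 35116 RefSeq promoters of 300 bases, from 250 before to 50 after the start, 13.5% held a pair and 0.490% a triple. The pair of HSPA1A began 106 bases before its start and that of HSPA1B 105 bases before. In HSPA8 overlapping pairs began 55 and 50 bases before the start and again at 230 and 225. HSP90AA1 held pairs at 88, 83 and 68 bases, HSPD1 at 245, 240 and 235, DNAJB1 at 77 and 47, and HSPB1 at 182. For HSP90AA1, HSPD1 and DNAJB1 these lie in promoter 2 of the gene in the RefSeq table, and a further DNAJB1 pair began just after the start in its promoter 3. The first promoters of these 3 genes held no pair. No pair was found in these windows of BAG3, HSPH1 and HSPA5. HSPA5 held the endoplasmic reticulum element, beginning 66 bases before its start, which 0.0769% of all promoters held. The upstream windows of HSPA1A and HSPA1B were identical at 235 of 251 aligned positions, or 93.6%. A match is a description of letters and was not tested as a binding site.

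HSPA1A (chromosome 6, 31815464 to 31817946, GENCODE 29 on GRCh38) and HSPA1B (chromosome 6, 31827735 to 31830255) are neighbours; the GENCODE models of HSPA1A have 1 or 2 exons and that of HSPA1B has 1. Of the 31-base words in the HSPA1A transcript 73.6% also stood in that of HSPA1B, and 73.1% the other way round. Of the nonzero entries of HSPA1A in the matrix 77.8% were not whole numbers, against 50.9% for DNAJB1, 20.6% for HSPD1 and 4.04% for HSPH1. The split of reads between the pair is uncertain, and the values of DNAJB1 and HSPD1 also rest in part on estimated counts. The other members lie at HSPA8, chromosome 11, 123057489 to 123063230; HSPH1, chromosome 13, 31134974 to 31162388; HSP90AA1, chromosome 14, 102080738 to 102139699; and DNAJB1, chromosome 19, 14514770 to 14529770. BAG3 lies on chromosome 10, 119651370 to 119677819, HSPB1 on chromosome 7, 76302544 to 76304295, HSPA5 on chromosome 9, 125234853 to 125241330, and HSPD1 on chromosome 2, 197486581 to 197516737.

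The deposited values were estimated counts, with a median of 12776 per cell, and the sums per tag ran from 3624668 to 58777177. Levels are given in CPM, a gene's counts scaled to a common total per tag, and they are compared within a gene because the values were not scaled by length. In such sums, fewer cells of a type and less RNA per cell cannot be told apart. Papain treatment is given for the organoids alone, with nothing on how 2-D cultures were taken apart, so format and dissociation cannot be told apart. The summed level of 10 immediate early genes, which are switched on within minutes of many stimuli, was 133 to 202 CPM in 2DCocu tags and 446 to 1029 in 3DFusi tags. It was 133 to 170 CPM in 2DMono and 317 to 541 in 3DMono. Its part in the format differences below was not tested. The sublibraries, which split the same pool, gave members a coefficient of variation of 2.34% to 13.4%, against 35.6% to 86.5% over tags.

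Chaperone levels varied most for the inducible HSP70 pair and least for HSPD1. HSPA1B was 8.40 ± 6.16 CPM over all tags (SD, n = 46) and ran from 0.981 to 26.7, a 27.2-fold range, and HSPA1A ran from 0.798 to 16.4 CPM, a 20.5-fold range. HSPB1 ran from 1.10 to 19.9 CPM, and its highest value came from 1 of the 3DProto2Xia tags, whose other 2 tags stood at 1.79 and 4.37. HSPD1 ran from 40.6 to 151 CPM, a 3.73-fold range, and HSPH1 from 34.9 to 139.9, a 4.01-fold range. HSPA8 ran from 21.3 to 160.6 CPM, HSP90AA1 from 88.5 to 414, DNAJB1 from 7.22 to 51.0, BAG3 from 5.52 to 28 and HSPA5 from 25.6 to 205.

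The order of the 9 arrangements differed between members. The organoid arrangement 3DProto1For had the highest mean of HSPA1A (8.47 CPM), HSPA1B (14.2), HSPA8 (89.7), DNAJB1 (36.8) and BAG3 (23.5). HSPD1 was highest in 3DFusi (100.3 CPM) and lowest in 2DMono (51.2). HSP90AA1 was highest in 2DProto3Wu (321 CPM) and lowest in 2DCocu (152). HSPH1 and HSPB1 were highest in 3DProto2Xia, at 109.5 and 8.68 CPM, and lowest in 2DProto2Fjo (39.8) and 2DMono (2.97). HSPA5 ran the other way, with its highest mean in 2DCocu (158 CPM) and its lowest in 3DProto2Xia (43.5). Of the 80 pairs of neighbours in these orders, 5 differed by more than the larger of their SDs. These were BAG3 in 3DProto1For over 3DFusi (23.5 against 13.7 CPM) and in 2DCocu over 2DProto2Fjo (10.3 against 8.05), HSPA5 in 2DCocu over 2DProto4Nic (158 against 109.7), HSPB1 in 2DCocu over 2DProto4Nic (4.95 against 3.67) and HSPH1 in 2DProto3Wu over 2DCocu (84.8 against 63.4).

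**Figure D1:**
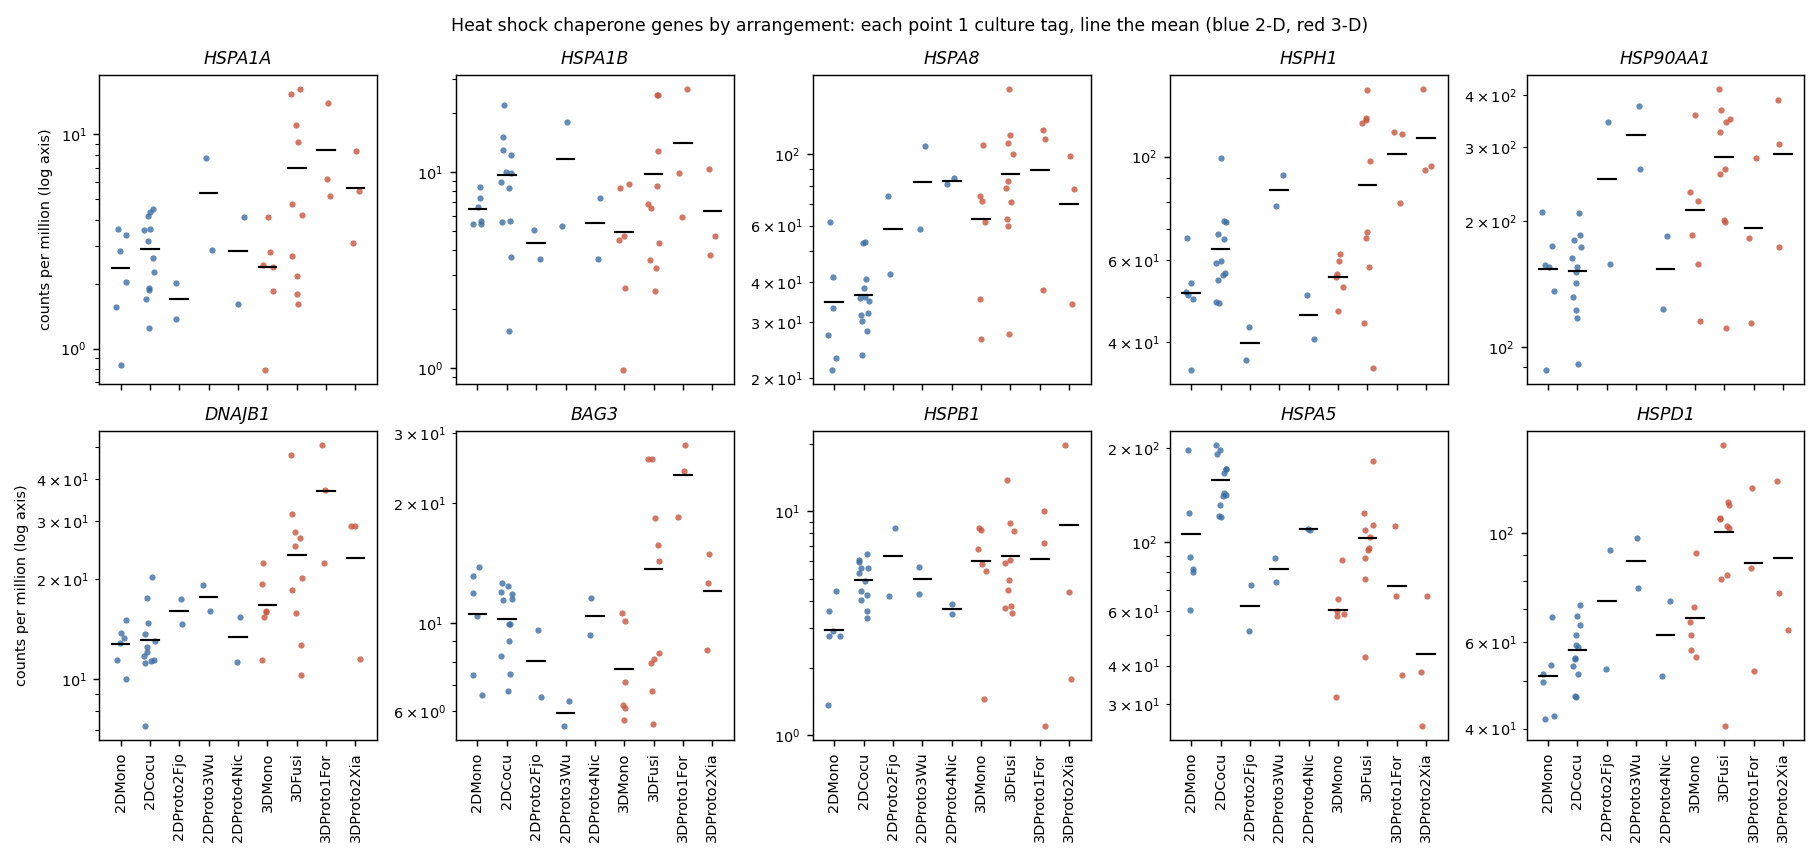
Level of each heat shock chaperone gene in CPM (vertical log axis) in the 9 arrangements; each point is 1 of 46 culture tags, blue for 2-D and red for 3-D, and the black line is the mean. The highest HSPA8 points are 3-D tags, up to 160.6 CPM, while HSPA5 is highest in 2DCocu, and the inducible pair HSPA1A and HSPA1B spreads over more than 20-fold.

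In the fused organoids (3DFusi) 4 of the 8 cytosolic members, HSPA8, HSP90AA1, DNAJB1 and HSPA1A, and the mitochondrial HSPD1 rose relative to the 2-D co-cultures (2DCocu), and HSPA5 of the endoplasmic reticulum fell. HSPA1B, HSPH1, BAG3 and HSPB1 did not pass. These 6 of 10 members passed an adjusted p of 0.05, against 49.4% of the 20930 genes tested (26.7% higher and 22.7% lower). The median log2 difference of the members was 0.54, and that of all genes 0.05. The HSPA1A call was lost in 2 alternative fits. Its counts summed with those of HSPA1B were not called (0.27, edgeR adjusted p = 0.581).

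HSPA8, the constitutive HSP70, stood at 23.7 to 53.2 CPM in the 12 2DCocu tags (median 35.2). In 3DFusi it was 100.6, 27.5, 114.9 and 160.6 CPM in AcCoc tags 1 to 4, 78.6, 62.7 and 82.5 in the AcMor tags, and 108.5, 59.9 and 71 in the Vehic tags. All 3DFusi tags except AcCoc 2 lay above every 2DCocu tag. The means were 86.7 ± 36.6 CPM (SD, n = 10) and 36.4 ± 9.03 (SD, n = 12), a log2 difference of 1.15 (SE 0.20, 2.23-fold; adjusted p = 5.71e-05, edgeR, range 1.63e-07 to 0.00519 over its alternatives).

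HSP90AA1, the inducible HSP90, was 266.2, 111.2, 414.3 and 369.1 CPM in the 3DFusi AcCoc tags, 345.5, 198.8 and 258.7 in the AcMor tags and 349.8, 326.8 and 201.2 in the Vehic tags. The 2DCocu tags ran from 91.4 to 209.0 CPM (median 153), so 7 of 10 organoid tags lay above all of them. The means were 284 ± 93.8 (SD, n = 10) and 152 ± 33.0 (SD, n = 12), a log2 difference of 0.83 (SE 0.17, 1.78-fold; edgeR adjusted p = 0.000296, range 2.82e-06 to 0.00994). HSPD1, the mitochondrial HSP60, was 100.3 ± 28.7 CPM in 3DFusi (SD, n = 10) and 57.8 ± 7.83 in 2DCocu (SD, n = 12). Of its 10 organoid tags 9 lay above every 2-D tag, and AcCoc 2, at 40.6 CPM, lay below them all. The log2 difference was 0.72 (SE 0.14, 1.65-fold; edgeR adjusted p = 0.000157, range 1.60e-07 to 0.00760).

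DNAJB1, the J-domain partner of HSP70, stood at 10.2 to 47.6 CPM in 3DFusi (median 22.7) and at 7.22 to 20.4 in 2DCocu (median 12.2). Its log2 difference was 0.74 (SE 0.19; edgeR adjusted p = 0.00255, range 0.000368 to 0.0233), with 5 of 10 organoid tags above every 2-D tag. HSPA1A was 1.62 to 16.4 CPM in 3DFusi (median 4.46) and 1.25 to 4.46 in 2DCocu (median 2.90), with 5 of 10 organoid tags above the 2-D range. All 5 carried the number 3 or 4, and in the 3DFusi tags numbered 1 or 2 HSPA1A was 1.62 to 2.70 CPM, inside the 2-D range. Its log2 difference of 1.11 (SE 0.37; edgeR adjusted p = 0.0148, range 0.00417 to 0.129) was no longer called with Vehic tags alone (1.19, adjusted p = 0.129) or without 3DFusi AcMor replicate 4 (0.83, adjusted p = 0.0705). Its near-identical neighbour HSPA1B was 9.78 ± 8.45 CPM in 3DFusi (SD, n = 10) and 9.65 ± 5.55 in 2DCocu (SD, n = 12), a log2 difference of -0.12 (SE 0.41, edgeR adjusted p = 0.824). The counts of the pair summed gave 0.27 (SE 0.38, edgeR adjusted p = 0.581) and was not called. The ratio of HSPA1B to HSPA1A had a median of 1.52 over 3DFusi tags and 2.96 over 2DCocu tags.

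HSPH1, the HSP110, was higher on average in 3DFusi, 86.9 ± 36.8 CPM (SD, n = 10) against 63.4 ± 14 (SD, n = 12), with a log2 difference of 0.35 (SE 0.18, edgeR adjusted p = 0.110, range 0.00323 to 0.454). It was called with Vehic tags alone (0.90, adjusted p = 0.00323), without 3DFusi AcCoc replicate 1 (0.44, adjusted p = 0.0409) and without 3DFusi AcCoc replicate 2 (0.45, adjusted p = 0.0181). BAG3 gave 0.31 (edgeR adjusted p = 0.229) and HSPB1 0.25 (edgeR adjusted p = 0.282). HSPA5 went down, from 158 ± 29.6 CPM in 2DCocu (SD, n = 12; 119.8 to 205.3) to 102.9 ± 35.9 in 3DFusi (SD, n = 10; 42.5 to 182.3), and 8 of 10 organoid tags lay below every 2-D tag. The log2 difference was -0.71 (SE 0.17, 1.64-fold lower; edgeR adjusted p = 0.00121, range 9.27e-05 to 0.0334).

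**Figure D2:**
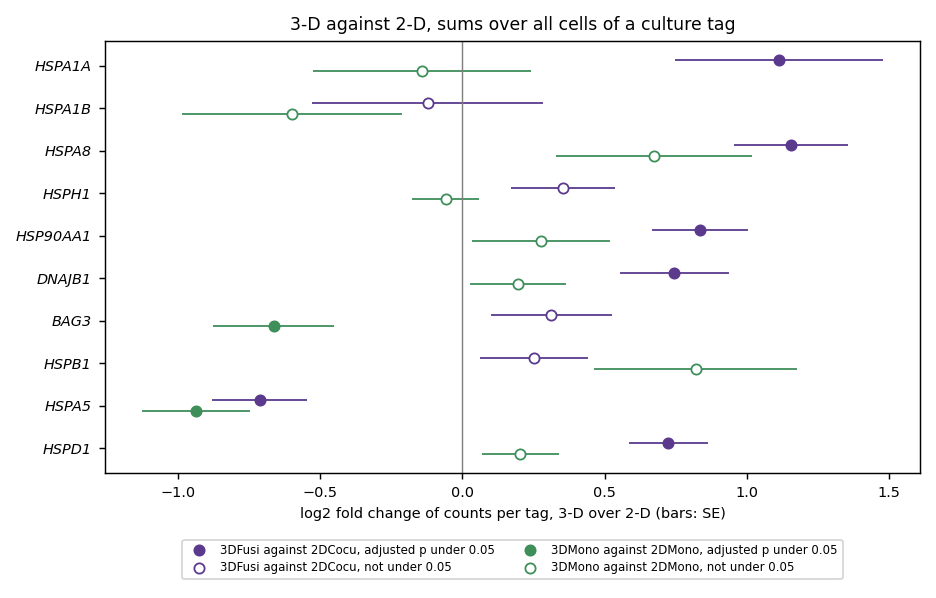
Log2 fold change with its standard error (horizontal axis) of each heat shock chaperone gene, 3-D over 2-D, for 3DFusi against 2DCocu and 3DMono against 2DMono; filled points have an adjusted p below 0.05 in edgeR. HSPA5 lies below 0 and is filled in both, at -0.71 and -0.94, while HSPA8 lies above 0 in both and is filled in the first alone.

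In monocultures 2 members were called between the formats, both lower in 3-D, and the call of BAG3 did not hold in all settings. HSPA5 and BAG3 were lower in 3DMono than in 2DMono, and no member rose. The share of all 20190 genes called was 38.8%, with 18% higher and 20.8% lower, against 2 of 10 members. The median log2 difference of the members was 0.07, and that of all genes 0.03.

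HSPA5 was 89.5 and 79.8 CPM in the AcDop tags of 2DMono, 60.2 and 82.0 in the AcMor tags and 197.8 and 124.3 in the Vehic tags. In 3DMono it was 57.9 and 58.4 CPM in AcDop, 59.7 and 31.7 in AcMor and 87.7 and 65.6 in Vehic. Of the 6 organoid tags 4 lay below every 2-D tag, and the Vehic tags were the highest of both formats. The log2 difference was -0.94 (SE 0.19, 1.91-fold lower; edgeR adjusted p = 0.00151, range 1.30e-11 to 0.0451). BAG3, the co-chaperone, was 7.65 ± 2.15 CPM in 3DMono (SD, n = 6) and 10.5 ± 2.99 in 2DMono (SD, n = 6), a log2 difference of -0.66 (SE 0.21, edgeR adjusted p = 0.0237, range 0.00784 to 0.133). That call was lost with Vehic tags alone (-0.76, adjusted p = 0.133), without doublets (-0.58, adjusted p = 0.0557) and when any of 6 tags was left out. Those tags were 2DMono AcDop 2, AcMor 2 and Vehic 2 and 3DMono AcDop 2, AcMor 2 and Vehic 1, with adjusted p from 0.0517 to 0.0769.

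HSPA8 was 26.5 to 107.0 CPM in 3DMono (median 66.6) and 21.3 to 61.5 in 2DMono (median 30.3), a log2 difference of 0.67 that did not pass (edgeR adjusted p = 0.138, range 6.10e-07 to 0.705). It passed with no filter on low counts (0.73, edgeR adjusted p = 6.10e-07), without 3DMono AcMor replicate 2 (0.85, adjusted p = 0.0412) and without 2DMono Vehic replicate 1 (0.96, adjusted p = 0.0419). With no filter the fold hardly moved while the adjusted p fell far, although the tags of the 2 formats overlapped. The reason was not tested, and that p-value is not read as support. HSPB1, the small heat shock protein, was 6.04 ± 2.56 CPM in 3DMono (SD, n = 6) and 2.97 ± 1.00 in 2DMono (SD, n = 6). Its log2 difference of 0.82 had an edgeR adjusted p of 0.0839 (range 0.00135 to 0.302), and it was called by DESeq2 (adjusted p = 0.0478), with no filter on low counts (0.00135) and without 3DMono AcMor replicate 2 (0.00408). The log2 differences of the remaining 6 ran from -0.60 for HSPA1B (edgeR adjusted p = 0.242, range 0.00802 to 0.464) to 0.28 for HSP90AA1 (edgeR adjusted p = 0.397, range 0.0152 to 0.759). HSPA1B passed without 3DMono AcMor replicate 1 (-1.16, edgeR adjusted p = 0.00802) and HSP90AA1 with no filter on low counts (0.34, adjusted p = 0.0152). The other 4 passed in no alternative run. HSPA1A and HSPA1B summed gave -0.45 (edgeR adjusted p = 0.340).

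The difference between the format effects of the 2 pairs was tested in Vehic and AcMor tags, which all 4 arrangements have. No member passed, against 6.68% of 24803 genes, although 2 members had an unadjusted p under 0.05 in edgeR. HSPH1 differed by 0.85 on the log2 scale (adjusted p = 0.0880) and HSPD1 by 0.73 (adjusted p = 0.111). The format differences of the members are therefore not shown to be unlike between the fused or co-cultured and the monoculture pair.

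HSPA5 was low in neurons and high in mesenchymal-like cells and in cluster 1, a cluster of 3160 cells that stayed unnamed because it held 3 of 8 astrocyte markers (GFAP, SLC1A3 and GJA1). Cells were grouped without the members and without the pathway genes, and these levels are a description. Over tags with at least 20 cells, HSPA5 was 321.5 ± 233 CPM in mesenchymal-like cells (SD, n = 29 tags) and 223.7 ± 82.8 in cluster 1 (SD, n = 18), above the other cells of the same tag in all 29 and all 18. Astrocyte-like cells had 156 ± 57.3 CPM (SD, n = 4) and choroid plexus-like cells 110.2 ± 44.6 (SD, n = 13). Excitatory neuron-like cells had 30.8 ± 12.5 CPM (SD, n = 41), where the other cells of those tags had 123, and GABAergic neuron-like cells had 31.3 ± 15.8 (SD, n = 31).

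The cell groups that supplied HSPA5 differed between formats. In 2DCocu cluster 1 gave 27.3% of HSPA5 counts, cluster 5 gave 22.7% and mesenchymal-like cells 29.3% from 4.45% of the cells, at 665 CPM. In 2DMono cluster 1 gave 74.1% of HSPA5 counts from 27.7% of the cells; the Vehic 1 tag held 77.6% of the arrangement's HSPA5 counts, and over the 6 tags the share from cluster 1 ran from 58.7% to 81.6%. Cluster 1 made up 12.8% to 23.5% of 2DCocu tags and 14.4% to 47.3% of 2DMono tags, but in organoids its share stayed at or below 0.113% (3DFusi) and 0.0881% (3DMono). Cluster 5, which stayed unnamed and led with ALDH1L1, ME1 and TTC6, made up 14% to 41.0% of 2DCocu tags and at most 0.0803% of a 3DFusi tag. In 3DFusi mesenchymal-like cells gave 38.5% of HSPA5 counts at 214 CPM, and in 3DMono they gave 16.7% at 180 CPM. Over single tags the share from this class ran from 15% to 46.7% in 2DCocu, 15.9% to 72.6% in 3DFusi and 8.69% to 26.3% in 3DMono, where the AcMor 1 tag held 37.9% of the HSPA5 counts. Different clusters held this class: cluster 14 held 96.5% of it in 2DCocu, and cluster 4 held 86.8% in 3DFusi and 94.3% in 3DMono. The part of these shares in the lower HSPA5 of whole 3-D cultures was not tested, beyond the comparisons within a class that follow.

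**Figure D3:**
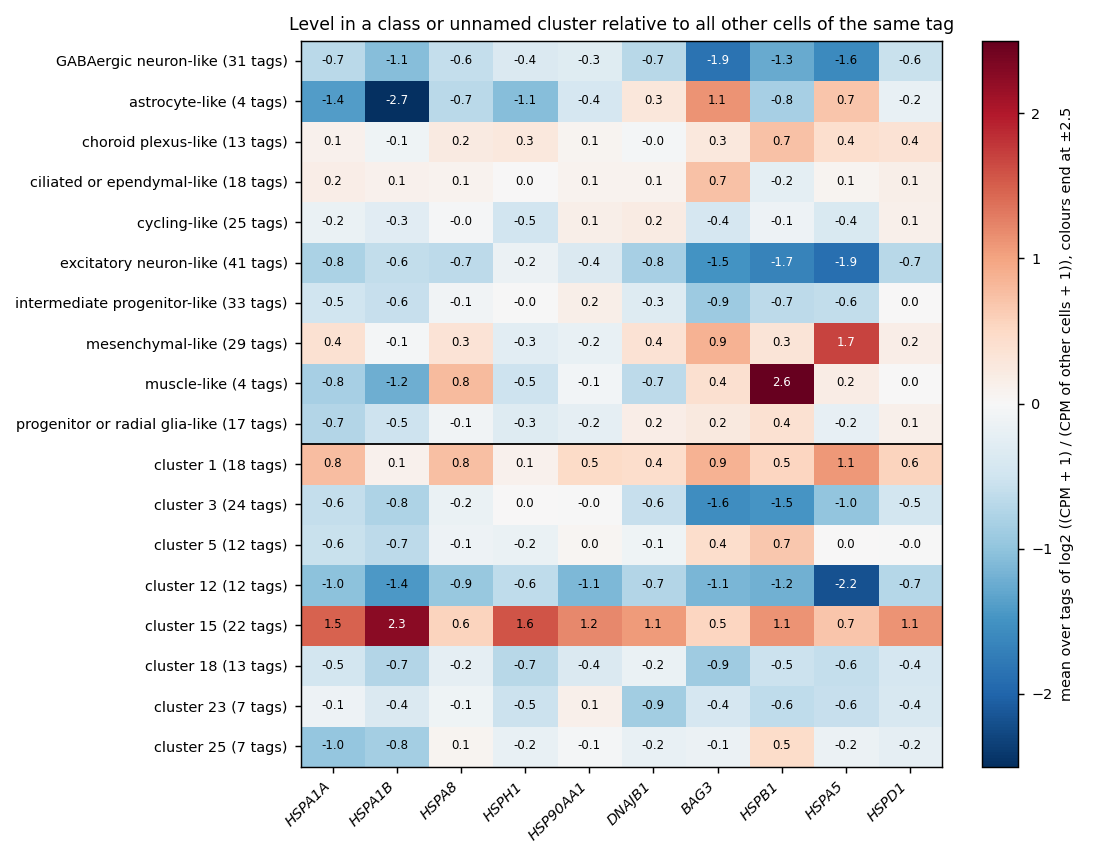
Mean log2 ratio of each heat shock chaperone gene in a cell class or unnamed cluster to the other cells of the same tag, with 1 CPM added to both, over the tags with at least 20 cells of it (number in brackets). HSPA5 is positive in mesenchymal-like cells (1.7) and cluster 1 (1.08) and negative in excitatory (-1.89) and GABAergic (-1.59) neuron-like cells, while HSPB1 is highest in muscle-like cells (2.63).

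HSPB1 and BAG3 levels also varied between classes, given here with no test. HSPB1, which is abundant in muscle, was 39.6 ± 13.3 CPM in muscle-like cells (SD, n = 4 tags), where the other cells of those tags had 5.58, and 1.36 ± 1.65 in excitatory neuron-like cells (SD, n = 41). BAG3 was 24.0 ± 9.40 CPM in astrocyte-like cells (SD, n = 4), 19.7 ± 7.91 in mesenchymal-like cells (SD, n = 29), 4.13 ± 2.94 in excitatory neuron-like cells (SD, n = 41) and 3.07 ± 2.54 in GABAergic neuron-like cells (SD, n = 31). It was lower in GABAergic neuron-like cells than in the other cells of the tag in all 31 tags. HSP90AA1 was detected in 77.6% of all cells, HSPD1 in 53.2%, HSPA5 in 50.6%, HSPA8 in 47.3% and HSPH1 in 46.5%. DNAJB1 was detected in 22.6%, BAG3 in 12.7%, HSPB1 in 7.56%, HSPA1B in 8.29% and HSPA1A in 5.83%, counting entries of at least 0.5. These shares depend on depth. With each cell thinned to 5000 counts they were 55.9% for HSP90AA1, 7.61% for DNAJB1 and 1.80% for HSPA1A, in the 42093 cells that reached this depth. No class here is known to lack these genes, so no background share can be set beside them.

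Within excitatory neuron-like cells the higher HSPA8, HSP90AA1 and HSPD1 of fused organoids remained, and HSPA5 was not lower there. Of the 6 members tested there 3 passed and all 3 were higher, against 41% of 10664 genes. HSPA8 was 60.8 ± 30.5 CPM in 3DFusi (SD, n = 10) and 23.1 ± 6.79 in 2DCocu (SD, n = 12), a log2 difference of 1.42 (SE 0.26, 2.68-fold; edgeR adjusted p = 0.000135). HSP90AA1 was 231 ± 81.3 and 102 ± 28.5 CPM, a log2 difference of 1.17 (SE 0.19, 2.25-fold; edgeR adjusted p = 4.94e-05). HSPD1 was 55.5 ± 15.8 and 40.5 ± 9.60 CPM (log2 difference 0.45, edgeR adjusted p = 0.0165), a call lost without 3DFusi Vehic replicate 1 (0.33, adjusted p = 0.0722). HSPA5 was 38.2 ± 11.6 CPM in 3DFusi and 29.9 ± 10.2 in 2DCocu, a log2 difference of 0.33 in the direction opposite to whole cultures (edgeR adjusted p = 0.144, range 0.0665 to 0.465). HSPH1 gave -0.19 (adjusted p = 0.407) and DNAJB1 0.17 (adjusted p = 0.578). The class held different clusters in the 2 formats: clusters 2 and 17 held 77.6% and 21.9% of it in 2DCocu, and cluster 0 held 94.7% in 3DFusi. This fit took the tags as separate, and the setting that summed 3DFusi tags by number was run for whole cultures alone.

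In monocultures the excitatory neuron-like cells of organoids had less HSPH1, the HSP110 exchange factor. HSPH1 was 42.9 ± 8.03 CPM in 3DMono and 73.3 ± 34.5 in 2DMono (SD, n = 6 each), a log2 difference of -0.85 (SE 0.21, edgeR adjusted p = 0.00638, range 0.00286 to 0.0251). edgeR called 2 of 8 members tested there, HSPH1 and HSPA1B, against 33.1% of 13103 genes. HSPA8 was 46.9 ± 28.5 CPM in 3DMono and 22.5 ± 7.80 in 2DMono (log2 difference 0.97, edgeR adjusted p = 0.0944, range 0.00929 to 0.205) and passed without 3DMono AcMor replicate 2 (1.15, adjusted p = 0.00929). DNAJB1 was 9.15 ± 2.59 and 13.6 ± 6.52 CPM (-0.65, edgeR adjusted p = 0.109, range 0.0205 to 0.354) and passed without 3DMono AcMor replicate 1 (-0.92, adjusted p = 0.0205) and without 2DMono AcMor replicate 2 (-0.78, adjusted p = 0.0410). HSPA1B was 1.06 to 4.37 CPM in 3DMono and 3.23 to 28.1 in 2DMono, and the groups overlapped. It was tested only where its 2DMono level took it past the filter on low counts, and it dropped out without doublets, without 2DMono AcMor replicate 1 and without 2DMono Vehic replicate 1, so its levels are a description and its call supports nothing. HSPA5 was 31.1 and 19.5 CPM there (log2 difference 0.53, edgeR adjusted p = 0.129, range 0.0132 to 0.332). It passed in 3 alternatives: resolution 0.4 (0.71, edgeR adjusted p = 0.0132), without 2DMono Vehic replicate 1 (0.85, adjusted p = 0.0232) and without 3DMono AcMor replicate 2 (0.68, adjusted p = 0.0198). Cluster 2 held 70.7% and cluster 17 held 29.2% of these cells in 2DMono, and cluster 0 held 99.5% in 3DMono.

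In intermediate progenitor-like cells of monocultures HSPA5 was lower in organoids, 51.0 ± 7.79 against 77.1 ± 24.5 CPM (SD, n = 6 each). The log2 difference was -0.59 (SE 0.20, edgeR adjusted p = 0.0250, range 0.0100 to 0.147), and leaving out any of 5 tags ended the call. It was the only call among 5 members tested, against 34.3% of 9057 genes. In GABAergic neuron-like cells edgeR called 0 of 5 members, against 23.1% of 8956 genes, with 3 at an unadjusted p under 0.05. HSPA5 was 31 against 16.6 CPM there (log2 difference 0.78, adjusted p = 0.0562, range 0.00198 to 0.173). It passed in 4 alternatives: resolution 0.4 (1.87, edgeR adjusted p = 0.00198), without 2DMono Vehic replicate 1 (1.09, adjusted p = 0.0175), without doublets (0.88, adjusted p = 0.0251) and without 3DMono AcMor replicate 2 (0.92, adjusted p = 0.0253). At resolution 0.4 the class also took in the unnamed cluster 15, described below. That cluster made up a mean of 3.13% of 3DMono tags and 0.370% of 2DMono tags. Its part in the larger difference at that resolution was not tested. HSPA8 was 55.6 against 20.6 CPM (1.28, adjusted p = 0.0917, range 0.00692 to 0.248) and passed without 3DMono AcMor replicate 2 (1.56, adjusted p = 0.00692). HSP90AA1 was 186 against 108 CPM (0.71, adjusted p = 0.0922, range 0.0319 to 0.206) and passed without 3DMono AcMor replicate 2 (0.86, adjusted p = 0.0319) and without 3DMono Vehic replicate 2 (0.85, adjusted p = 0.0418). Different clusters held these classes too: cluster 16 held 94.2% of GABAergic neuron-like cells in 2DMono and cluster 7 held 93.4% in 3DMono. Cluster 10 held 98.9% of the progenitors in 2DMono, and cluster 19 held 71.1% in 3DMono.

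Among the treatments, HSPH1 and HSPD1 were higher with AcCoc than with Vehic in 2-D co-culture. The tag names match the initial letters of drugs in the series text, and the labels do not define them. These 2 of 10 members were called, both higher, against 6.09% of 21032 genes (3.6% higher and 2.49% lower). HSPH1 was 99.4, 72.7, 68.1 and 66.7 CPM in AcCoc tags 1 to 4, 59.8, 59.2, 72.2 and 48.4 in the AcMor tags and 54.3, 56.2, 48.6 and 55.7 in the Vehic tags. All 4 AcCoc tags lay above all 4 Vehic tags, 76.7 ± 15.3 against 53.7 ± 3.48 CPM (SD, n = 4 each). The log2 difference was 0.55 (SE 0.12, 1.47-fold; edgeR adjusted p = 0.0125, range 0.00147 to 0.419).

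HSPD1 was 71.2, 67.8, 62.0 and 65.0 CPM in the AcCoc tags and 51.6, 53.7, 46.6 and 59.3 in the Vehic tags, without overlap. The means were 66.5 ± 3.93 and 52.8 ± 5.23 CPM (SD, n = 4 each), a log2 difference of 0.37 (SE 0.09, 1.29-fold; edgeR adjusted p = 0.0233, range 0.00215 to 0.580). Fitting all 4 arrangements at once ended both calls (HSPH1 adjusted p = 0.419, HSPD1 0.580). HSPH1 was also lost without Vehic replicate 3 (0.0527), and HSPD1 without any of AcCoc 1, 2 or 3 or Vehic 1, 2 or 3 (0.0545 to 0.0877). HSP90AA1 was 177.6 ± 27.6 against 131.6 ± 36.8 CPM (SD, n = 4 each), a log2 difference of 0.48 that missed the threshold (edgeR adjusted p = 0.0591, range 0.0125 to 0.628). It was called with the tag number as a block (0.0311), by DESeq2 (0.0347), with no filter (0.0433) and without Vehic replicate 2 (0.0125). The median mitochondrial share of a tag was 2.48% to 3.38% in AcCoc, 2.68% to 3.48% in AcMor and 0.968% to 2.17% in Vehic tags. Its part in the result was not tested. The immediate early genes summed to 152 to 195 CPM in AcCoc and 159 to 176 in Vehic tags.

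**Figure D4:**
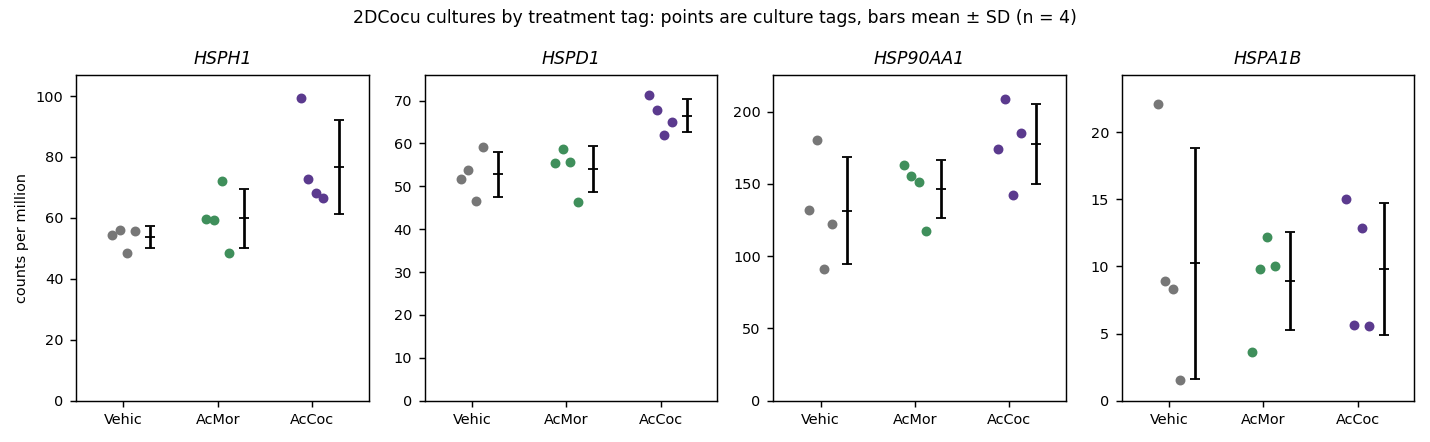
Levels of HSPH1, HSPD1, HSP90AA1 and HSPA1B in CPM (vertical axis from 0) in the 2DCocu tags by treatment; points are tags, and lines are the mean and SD (n = 4 each). The 4 AcCoc tags lie above the 4 Vehic tags for HSPH1 and HSPD1, and the groups overlap for HSP90AA1 and HSPA1B.

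AcMor, compared with the same Vehic tags, changed no member in 2DCocu by edgeR, against 0.975% of genes (0.685% higher and 0.29% lower), and 0 members had an unadjusted p under 0.05; DESeq2 also called 0. HSPH1 gave a log2 difference of 0.19 (edgeR adjusted p = 0.499) and HSPD1 0.07. In 3DFusi edgeR called 0 members and 0% of 23676 genes for AcCoc and for AcMor, with 0 members at an unadjusted p under 0.05 in either, and DESeq2 called 0 members. HSPH1 in 3DFusi was 74.5 ± 41.7 CPM with AcCoc (SD, n = 4) and 108.8 ± 36.0 with Vehic (SD, n = 3), a log2 difference of -0.53 (edgeR adjusted p = 1.0). The AcCoc effect on HSPH1 differed between 3DFusi and 2DCocu by -1.06 (SE 0.35, unadjusted p = 0.00551 and adjusted p = 0.676 in edgeR), which did not pass. None of the 50 interaction values of the members passed.

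In 2DMono HSPA5 was lower with AcMor and with AcDop than with the same 2 Vehic tags, without passing the adjusted threshold. It was 161 ± 52.0 CPM with Vehic, 71.1 ± 15.4 with AcMor and 84.7 ± 6.85 with AcDop (SD, n = 2 each). The higher Vehic tag, Vehic 1 at 197.8 CPM, had a median mitochondrial share of 4.19% and a median of 20732 counts per cell, where the other 5 tags of 2DMono had 0.717% to 2.10% and 8067 to 14988, and the part of these in the result was not tested. The log2 difference was -1.25 for AcMor (SE 0.27, unadjusted p = 0.00111, adjusted p = 0.764 in edgeR, range 3.76e-06 to 1.0) and -0.93 for AcDop (unadjusted p = 0.00675, adjusted p = 1.0 in edgeR, range 0.0040 to 1.0). Without Vehic 1 the differences were -0.78 for AcMor and -0.46 for AcDop. DESeq2 called the AcMor difference (adjusted p = 0.0242), and the fits with no filter called both. In 3DMono HSPA5 was 45.7 CPM with AcMor and 76.7 with Vehic (log2 difference -0.63, edgeR adjusted p = 0.621). In each of the 4 monoculture comparisons edgeR called 0 members and 0% of genes; 1 member had an unadjusted p under 0.05 for each agent in 2DMono, and 0 in 3DMono. DESeq2 called 1 member in 2DMono AcMor and 0 in the other 3.

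In 3DFusi against 2DCocu more genes of the cytosolic list rose than fell, and more of the endoplasmic reticulum list fell than rose. Of 30 further cytosolic chaperones and co-chaperones tested 18 rose and 1 fell, with a median log2 difference of 0.38 against 0.05 for all genes, of which 26.7% rose and 22.7% fell. The client-delivering DNAJA1 was 104.1 against 34.5 CPM (log2 difference 1.49, edgeR adjusted p = 3.55e-07) and the constitutive HSP90AB1 was 162 against 60.4 (1.34, adjusted p = 1.87e-07). CRYAB, a small heat shock protein, fell by 1.23 (1.93 against 4.24 CPM, adjusted p = 0.000157). Of 23 endoplasmic reticulum and unfolded protein response genes 2 rose and 16 fell (median -0.46). HYOU1, an HSP110-like chaperone of that compartment, was 43.8 against 122 CPM (-1.58, adjusted p = 1.88e-07) and CRELD2 8.94 against 19.3 (-1.23). The 2 that rose, ATF4 (1.14) and DDIT3 (0.80), are stress transcription factors and not chaperones. Cluster 1 made up a mean of 17.2% of 2DCocu tags and 0.0362% of 3DFusi tags, and cluster 5 made up 23.8% and 0.00803%. The part of these cell shares in the list differences was not tested. Of 12 mitochondrial chaperones and proteases 7 rose, among them HSPE1, the partner of HSPD1 (1.00), and HSPA9 (0.56), and CLPX fell by 0.19. Of 3 heat shock factors and HSBP1, a protein that binds a heat shock factor, HSF2 (0.26, edgeR adjusted p = 0.0113) and HSBP1 (1.08) rose. Of 10 immediate early genes 8 rose (median 1.56), led by FOSB (44.6 against 3.34 CPM, 3.51) and FOS (140.7 against 15.8 CPM, 3.00).

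In 3DMono against 2DMono the endoplasmic reticulum list again fell more often than it rose, 12 against 3 of 23 (median -0.60), where 20.8% of all genes fell and 18% rose. SERPINH1, a collagen chaperone, was 10.2 against 26.5 CPM (-1.54) and HYOU1 26.8 against 49.0 (-1.05), while DDIT3 (0.73) and ATF4 (0.67) rose. Of the cytosolic list 6 rose and 2 fell of 30 (median 0.19), a share of higher calls near the 18% of all genes. DNAJA4 (4.00 against 1.49 CPM, 1.29) and DNAJA1 (70.2 against 30.3 CPM, 1.00) rose, and CRYAB (1.25 against 10.9 CPM, -3.28, edgeR adjusted p = 1.46e-07) and DNAJB6 (-0.29) fell. Cluster 1 made up a mean of 29.6% of 2DMono tags and 0.0237% of 3DMono tags, and astrocyte-like cells made up 4.65% and 0%. The part of these cell shares in the endoplasmic reticulum list and in CRYAB was not tested. Of the mitochondrial list TRAP1 rose (0.27) and AFG3L2 fell by 0.53 among 12 genes, and of the 3 heat shock factors and HSBP1 the factor HSF4 (1.00) rose. Of 9 immediate early genes 6 rose, led by FOS (71.8 against 16 CPM, 1.96) and FOSB (1.90), and KLF6 fell by 0.61. With AcCoc in 2DCocu 2 of 30 cytosolic genes rose, where 3.6% of all genes did, and 0 genes of the other 4 lists passed in edgeR.

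Cluster 15, a small group of 1220 cells, had higher levels of all 10 members than the other cells pooled, most of all of the inducible HSP70 pair. It stayed unnamed, since its best class, intermediate progenitors, had 1 of 6 markers (NHLH1), and LINC00326, LINC01409 and DAPP1 led it. It made up 2.79% of cells and 1.98% of counts, and held 17.8% of HSPA1B and 12.5% of HSPA1A counts. Its cells had a median of 10387 counts and a median mitochondrial share of 0.329%, where other cells had 12862 counts and 2.69%, and 1.56% were called doublets. The neuronal markers STMN2 (63.7 against 153 CPM) and DCX (87.7 against 294) and the cycling marker MKI67 (16.7 against 121) were lower in it than in the other cells. The neuronal SNAP25 (37.4 against 35.4 CPM) and the cycling UBE2C were not lower. The epithelial markers CDH1 (23.8 against 2.89 CPM) and KRT8 (9.86 against 2.35) were higher in it, while KRT5 was not. The neural crest marker ERBB3 (13 against 2.32 CPM) and the endothelial PECAM1 (5.76 against 1.37) were also higher, while FOXD3 and CDH5 of the same lists were not. Cluster 15 was singled out after its member levels were seen. Its values and the counts of tags below are therefore a description and not a test. At a clustering resolution of 0.4 the same cells merged with a GABAergic cluster.

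Pooled over tags, HSPA1B was 75.3 CPM in cluster 15 and 7.02 in all other cells, 10.7-fold, and HSPA1A 27.0 against 3.82, 7.06-fold. HSPH1 was 282 against 61.9 CPM (4.56-fold), HSPB1 19 against 5.29 (3.60-fold), BAG3 35.1 against 10.2 (3.43-fold) and DNAJB1 56.5 against 17.7 (3.19-fold). HSPD1 was 2.91-fold, HSP90AA1 2.69-fold, HSPA8 1.81-fold and HSPA5 1.53-fold higher. Within tags, in the 22 tags with at least 20 such cells, HSPA1B and HSP90AA1 were higher in cluster 15 in all 22, with median folds of 5.48 and 2.29. The other medians were 3.84 for HSPA1A, 3.08 for HSPH1, 2.64 for HSPB1, 2.23 for HSPD1, 1.83 for DNAJB1, 1.63 for BAG3, 1.58 for HSPA8 and 1.45 for HSPA5, so HSP90AA1 and HSPD1 stood above DNAJB1 and BAG3 within tags and below them when pooled. HSPH1, HSPD1 and DNAJB1 were higher in 21 of 22, HSPA1A in 19, HSPB1, HSPA8 and HSPA5 in 18 and BAG3 in 15. The fold of HSPA1B ran from 1.18 to 75.2, and the highest came from 2DCocu Vehic 1, at 716 against 9.52 CPM in 32 cells.

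**Figure D5:**
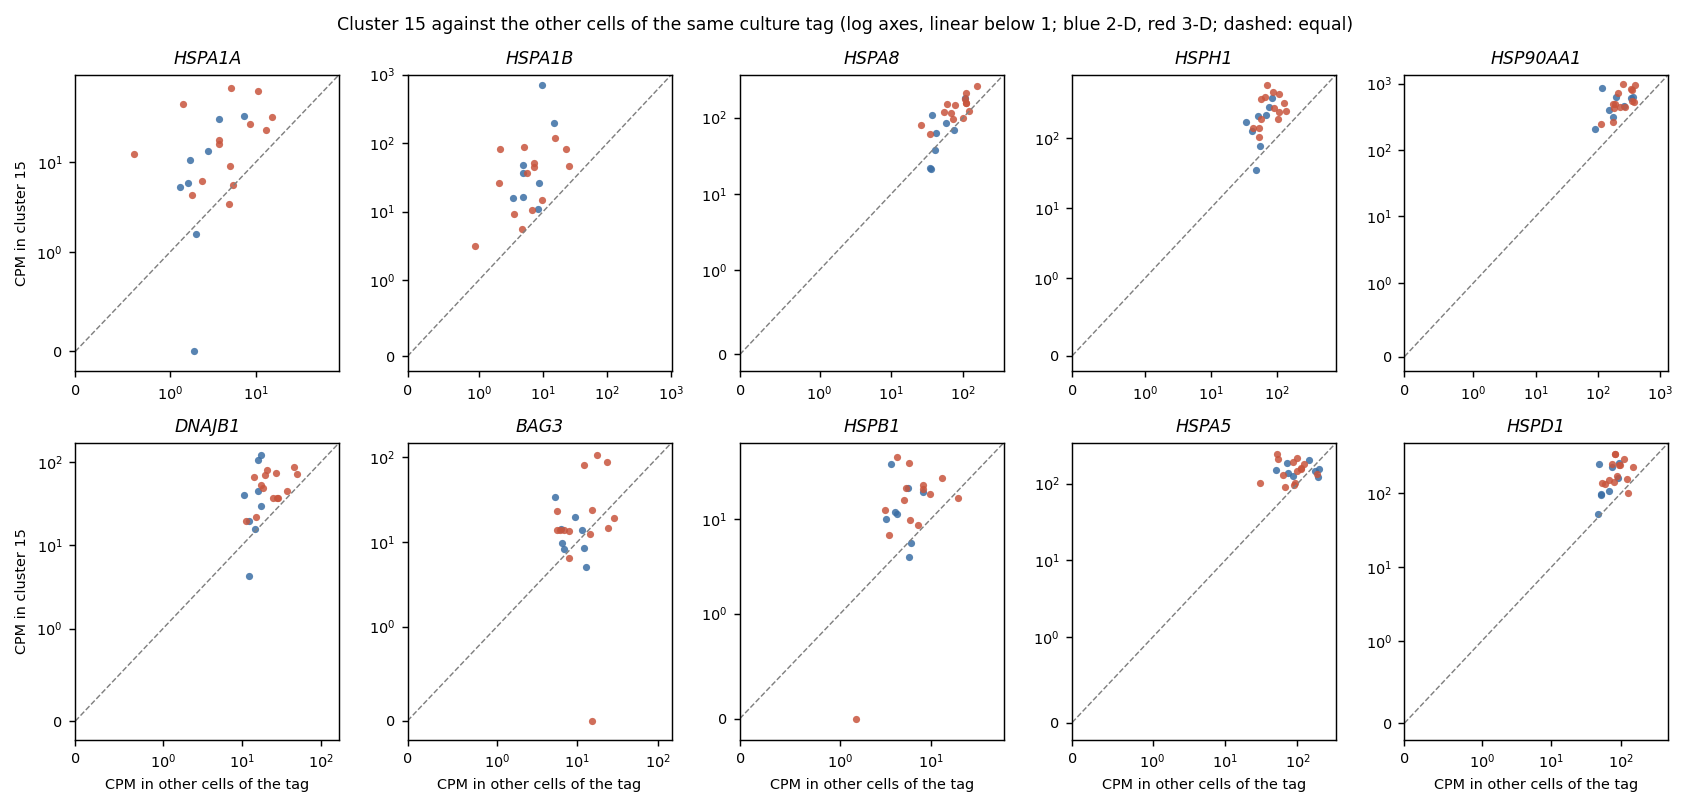
Level in CPM of each heat shock chaperone gene in cluster 15 (vertical axis) against the other cells of the same tag (horizontal axis), with 1 point for each of 22 tags, log axes that are linear below 1, and a dashed line at equality. All 22 points lie above the line for HSPA1B and HSP90AA1, and 18 do for HSPA8 and HSPA5. The cluster was singled out after these levels were seen, so the points are a description.

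Other chaperones were higher in cluster 15 as well. At least 2-fold higher were 21 of 32 further cytosolic chaperones, 8 of 12 mitochondrial, 7 of 23 endoplasmic reticulum genes, 1 of the 4 genes of heat shock factors and HSBP1 and 1 of 10 immediate early genes, where 4042 of 21397 genes in all were. The median log2 ratios of these lists were 1.25, 1.14, 0.53, 0.48 and 0.19, and that of all genes 0.38. The cluster's mean share of a tag was 0.370% in 2DMono (0.0902% to 0.623%), 1.84% in 2DCocu (0.363% to 3.01%), 3.13% in 3DMono (1.94% to 4.6%) and 4.98% in 3DFusi (0.488% to 12.2%). In the arrangements of 2 or 3 tags it was 3.03% in 2DProto2Fjo, 2.53% in 2DProto3Wu, 1.4% in 2DProto4Nic, 3.63% in 3DProto1For and 1.26% in 3DProto2Xia, so 2-D and 3-D arrangements overlapped. With these cells left out, the same number of members, 6, was called in 3DFusi against 2DCocu, among 10220 genes. The log2 differences were then 0.16 for HSPH1, 0.12 for BAG3, 0.12 for HSPB1 and 0.85 for HSPA1A, each smaller than with all cells. Those of HSPA8 (1.13), HSP90AA1 (0.81), DNAJB1 (0.73) and HSPA5 (-0.73) changed little.

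The top 1% of cells held a larger share of the counts of the inducible HSP70 pair than of HSPB1 and BAG3. The top 1% of cells for each gene, 437 cells, held 46.7% of HSPA1B, 39.6% of HSPA1A, 29.2% of HSPB1, 23.4% of BAG3 and 11% of HSP90AA1 counts, and the deepest 1% of cells held 8.10% of all counts. The counts of a sparse gene lie in few cells by counting alone, so totals matter here: HSPA1A and HSPA1B had 3400 and 6646 counts in all, HSPB1 4411, BAG3 8505 and HSP90AA1 180408. In 31 cells HSPA1A and HSPA1B together had at least 20 counts, and these 0.0709% of cells held 10.9% of the pair's counts. They came from 14 tags and all 8 sublibraries, 15 of them lay in cluster 15 and 5 were called doublets. In the same cells DNAJB1 was 239 CPM against 18.1 in all others (13.2-fold), BAG3 120.0 against 10.5 (11.4-fold), HSPB1 48.6 against 5.49 (8.85-fold) and HSPH1 514 against 65.6 (7.84-fold). HSPD1 was 5.18-fold, HSP90AA1 5.06-fold, HSPA8 2.32-fold and HSPA5 1.77-fold higher there. A tag's HSPA1 level could rest on 1 cell: a cell of 3DMono AcDop 2 with 49 counts held 44.5% of that tag's counts of the pair, and a cell of 2DCocu Vehic 1 with 86 counts held 20.1%.

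Across the 46 tags some cytosolic and mitochondrial members varied together and others did not. Correlations are Pearson r of log2 (CPM + 1), given as a description, since tags share arrangements and the pool. Between pairs of the members other than HSPA5 they ran from 0.07 for HSP90AA1 and BAG3 to 0.88 for HSP90AA1 and HSPD1. HSPA1B with HSP90AA1 and HSPD1 gave 0.11 and 0.14. The highest after HSP90AA1 and HSPD1 were 0.78 for HSPA1A and DNAJB1, 0.78 for HSPA8 and HSPD1, 0.75 for HSPA8 and HSP90AA1 and 0.73 for HSPA1A and HSPA1B. Those of HSPA5 with the other 9 members ran from -0.10 to 0.31.

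Of 13556 genes with a mean of at least 5 CPM over the 34 tags of the 4 treated arrangements, the 5 most like HSPA5 were PDIA3 (r = 0.92), HSP90B1 (0.90), CALR (0.89), CANX (0.89) and PDIA6 (0.87). All 5 are in the endoplasmic reticulum list. Genes most like HSP90AA1 included RPL6, YWHAB, RPS7 and RFK, each with r of 0.93, and RPL6 and RPS7 encode ribosomal proteins. The 5 most like HSPA1A were PES1 (0.89), ATAD3B (0.85), ATAD3A (0.84), JADE2 (0.84) and MXRA8 (0.84), and none of them is in a pathway list.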

How the data were processed

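The measurement was single-cell RNA sequencing of 8 sublibraries of barcoded cells. The deposited matrix holds estimated counts per gene and cell, of which 54.3% of nonzero entries are whole; Salmon 1.7.0, alevin, Seurat 4.1.1 and the build hg38 are named per the submitters' processing notes, with no order or settings. The lowest number of genes in a deposited cell is 1006 and the highest mitochondrial share 10.0%. Of 41192 barcode combinations 2393 occur in more than 1 sublibrary, and these were kept as separate cells.

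Counts were summed per culture tag, read from the cell names, and rounded. Tests used edgeR 4.0.16 (robust quasi-likelihood, TMM, filterByExpr; R 4.3.3) with Benjamini-Hochberg adjustment over all genes tested and a threshold of 0.05. Format comparisons had treatment as a covariate, treatment comparisons were fitted within an arrangement, and interactions in 1 fit over the 4 treated arrangements. Classes came from leiden clustering (leidenalg 0.10.2, 2000 variable genes without members and pathway genes, 30 components, 20 neighbours, resolution 0.8). A cluster was named from at least 3 markers and 40% of a list. Doublet calls (4256 cells, 9.74%) were kept in and left out as an alternative. Shares of cells and floors carry counting error only.

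Other settings were DESeq2 1.42.0, no filter, Vehic tags alone, all arrangements in 1 fit, the tag number as a block, no doublets, resolution 0.4, TMM-scaled CPM, HSPA1A and HSPA1B summed and each tag left out. Shares of cells with a count were also taken with each cell thinned to 5000 counts. Calls made by the fit with no filter alone are not read as support. Same-numbered 3DFusi tags all correlated positively (r 0.130 to 0.548 over 9 pairs, deviations from group means). Differently numbered tags are not given beside them. This is only a hint of pairing from the values, since the labels give none. The main fits took the tags as separate. With tags summed by number, HSPA8 in 3DFusi against 2DCocu had an edgeR adjusted p of 0.00112. The fits were tested on simulated counts: of genes changed 2-fold up, 100% were recovered in both format comparisons, 88% for AcCoc in 2DCocu, 70% for AcCoc in 3DFusi and 30% for AcDop in 2DMono. Of genes changed 1.5-fold up, 80% were recovered for 3DFusi against 2DCocu, 42% for 3DMono against 2DMono, and 22%, 12% and 4% in the same 3 treatment comparisons, and of genes that fell 2-fold 14% for AcDop in 2DMono. The simulated biological coefficient of variation was 0.2, where the data gave 0.244 and 0.210 for the fused and monoculture format comparisons, 0.152 in 2DCocu, 0.337 in 3DFusi and 0.201 in 2DMono, so recovery is overstated where the data vary more. Changed genes were drawn only from those above a minimum mean count per tag, so these rates do not cover genes with low counts.

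Named genes are the members, the 2 called genes with the largest rise and fall of each pathway list, and the 5 most correlated genes for HSPA1A, HSPA5 and HSP90AA1. 1 gene named by this rule is not reported here. The members and lists were chosen with earlier results of these data known. Promoters are from RefSeq (GRCh38.p14), gene positions from GENCODE 29; all 10 members matched.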

Additional observations from a re-analysis of the deposited data

Results flagged for a closer look

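HSPA8, the constitutive HSP70, was 53.2 CPM in 2DCocu AcMor tag 2, where the other 3 AcMor tags of that arrangement stood at 28.2 to 32 CPM. The gap took 0.848 of the group's range, which is past the 95% limit for 4 values. HSPA5 was 115.9 CPM in sublibrary 3, where the other 7 sublibraries ran from 104.0 to 108.1 CPM, and its gap took 0.656 of the range. These were 2 of 50 groups tested, and chance gives such a value in about 1 group of 20. Causes were not tested. None of the 50 interaction values of the members passed the adjusted threshold in edgeR, which does not show that the effects are alike.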

How the results depend on the processing

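No called value changed sign under the settings run. With Vehic tags alone 6023 genes were called in 3DFusi against 2DCocu and 3248 in 3DMono against 2DMono. The 2 members called in 3DMono against 2DMono became 5 with no filter, 1 with Vehic alone and 1 without doublets. For AcCoc in 2DCocu 1 fit over all 4 arrangements called 0 members and 0 genes, DESeq2 2007 genes and the fit without doublets 1971. For AcMor in 2DCocu 1 fit over all arrangements called 0 genes, DESeq2 685, no filter 392, the replicate block 40 and the fit without doublets 670. In 3DFusi AcCoc gave 3 genes in 1 fit over all arrangements and 1 by DESeq2. AcDop in 2DMono gave 1 member and 38 genes with no filter and 13 genes by DESeq2; in 3DMono it gave 2 genes in 1 fit over all arrangements, 17 by DESeq2 and 145 with no filter. AcMor in 2DMono gave 1 member and 19 genes by DESeq2 and 1 member and 188 genes with no filter; in 3DMono it gave 174 genes by DESeq2, 746 with no filter, 36 with the replicate block and 2 without doublets. Within classes of monocultures, GABAergic neuron-like cells gave 1 member without doublets and 1 at resolution 0.4. Excitatory neuron-like cells gave 1 without doublets, where HSPA1B no longer passed the filter and was not tested. The cause was not tested for the other changes.

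Leaving out each tag in turn gave 9832 to 10753 genes and 5 to 7 members in 3DFusi against 2DCocu, and 6896 to 7924 genes and 1 to 3 members in 3DMono against 2DMono. It gave 404 to 1432 genes and 0 to 2 members for AcCoc in 2DCocu, 27 to 283 genes for AcMor in 2DCocu, 0 to 2 for AcDop and 0 to 3 for AcMor in 2DMono, and 0 to 48 for AcDop and 0 to 400 for AcMor in 3DMono. Within classes the members called were 2 to 3 (3DFusi against 2DCocu, excitatory), and in monocultures 1 to 4 (excitatory), 0 to 3 (GABAergic) and 0 to 1 (intermediate progenitor). With tags of 1 number summed 8855 genes and the same number of members, 6, were called in 3DFusi against 2DCocu, a setting chosen after seeing the data, as was leaving out cluster 15. With the replicate block AcCoc in 2DCocu gave 3 members and 945 genes, and the block changed no other member call. Same-numbered tags correlated at -0.212 to 0.0876 in 2DCocu, -0.0872 to 0.0618 in 2DMono and 0.0510 to 0.204 in 3DMono, so the numbers are not shown to pair them. TMM scaling multiplied tag levels by 0.889 to 1.2 and moved 5 means by over 1 SD, all in 2DProto4Nic. Low counts limit HSPA1A, HSPA1B and HSPB1, and 2 tags a group limit the monoculture treatments.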
